A study of Mus musculus with 12 samples.

Results

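Conventional type 1 dendritic cells (cDC1) of MC38 tumors were taken as the cells that the authors placed in cluster 6, 1312 of 93126 cells. The deposited tables number the cluster without naming it, and the study describes it as Xcr1+ Clec9a+ dendritic cells. It gives the name DC1 to cluster 11, called migratory dendritic cells here. Its identity was checked against the cDC1 markers Xcr1, Clec9a, Itgae and Btla and 12 others. MC38 is a mouse colon carcinoma line, here grown under the skin of female mice of 8 to 12 weeks. Hosts were B6 (C57BL/6J) animals or F1 animals of C57BL/6J with CC001/UncJ, CC002/UncJ, CC075/UncJ, CC036/UncJ, CC079/TauUncJ, CC080/TauUncJ or CC007/UncJ, strains of the Collaborative Cross (CC) that carry mixed genomes of several founders. Every host therefore carried at least 1 B6 haplotype, and every tumor was of the same B6-derived line. Antibody against the T cell checkpoint PD-1 (aPD1) or isotype antibody was given once, at 200 µg an animal. Tumors were collected after 48 h and enriched for CD45+ leukocytes by sorting. The study classed CC001, CC002 and CC075 as responder strains and CC036, CC079 and CC080 as non-responder strains from tumor growth in other animals. B6 and CC007 were placed in no class here. The 48 tumors, 24 for each treatment, were marked with hashtags and pooled into 12 libraries of 4 tumors, and the tumor was the replicate throughout.

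Dendritic cells take up antigen and present it to T cells. cDC1 are the subset best known for cross-presentation, the loading of antigen from dead cells onto MHC class I for CD8+ T cells. They depend on the transcription factors IRF8 and BATF3, sense the chemokine XCL1 of T and NK cells through the receptor XCR1, and are known in tumors as a source of IL-12 and of the chemokines CXCL9 and CXCL10, which attract T cells. On maturation dendritic cells raise CCR7, leave for the lymph node and lose much of the program that marks their subset.

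All 48 tumors held cells of cluster 6, from 2 to 95 of them with a median of 23.5. A cell of the cluster held a median of 6575.5 UMIs (unique molecular identifiers, each marking 1 captured transcript) and 2107.5 genes, against 3300 UMIs in the other cells, and the cluster held 2.36% of all UMIs. Gene tests used summed counts of the 39 tumors with at least 10 such cells, which held 68927 to 598584 UMIs each. These included 16 responder strain tumors (6 isotype, 10 aPD1) and 16 non-responder strain tumors (8 and 8). Levels are given as CPM, the counts of the summed cluster scaled to a total of 1000000 UMIs. Cells with at least 2 UMIs of macrophage or T cell genes made up 5.18% of the cluster (68 cells). Of its cells, 144 had a barcode that also stood on a cell of another library, and 2 cells of cluster 6 shared a barcode with each other.

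The label held against the markers. Xcr1, the receptor for the chemokine XCL1, stood at 197 CPM in cluster 6 and at 3.16 CPM in the next highest cluster, and 86.8% of all Xcr1 UMIs of the series lay in these cells. Gcsam, a signaling adaptor of lymphoid cells, was as restricted, with 91.0% of its UMIs there and 148 CPM. Clec9a, which recognizes actin of dead cells, stood at 271 CPM against 121 CPM in cluster 18, the plasmacytoid dendritic cells (pDC). Itgae, the CD103 integrin, stood at 250 CPM and the inhibitory receptor gene Btla at 288 CPM, against 91.1 and 113 CPM in the next clusters. Of 16 cDC1 markers, 12 were highest in cluster 6 and 13 reached 100 CPM. Tlr3, a sensor of double-stranded RNA, stood at 159 CPM and Naaa, a lysosomal hydrolase, at 1148 CPM, and both were highest there. The markers whose highest level lay elsewhere included Irf8 (1165 CPM, pDC 1437 CPM) and Cadm1 (141 CPM, 432 CPM in cluster 19). Since the cells were clustered on these genes, the levels are a description of the cluster and were not tested.

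An Xcr1 UMI was found in 53.2% of the cells and a Clec9a UMI in 73.9%. In T cell cluster 3 (2809 cells), which should lack both, the shares were 0.178% and 0%, the latter allowing up to 0.107%. The median depth was 2823 UMIs a cell there and 6575.5 UMIs in cDC1. Together, 83.8% of cells held either transcript, and these cells were deeper (median 7119 UMIs) than the others (3918.5 UMIs). Irf8 was found in 94.0% of cells, Wdfy4 in 96.6% and Batf3 in 71.1%. WDFY4 is needed for cross-presentation of cell-associated antigen. Markers of other cells were low. The 12 T and NK cell genes summed to 16.7 CPM, with Ncr1 at 0, and the 7 fibroblast genes to 3.07 CPM, with Postn at 0. The 12 macrophage genes summed to 665 CPM, against 16457 CPM in macrophage cluster 2. The 8 cDC2 genes summed to 168 CPM, against 2456 CPM in cluster 14, the conventional type 2 cells (cDC2).

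**Figure D1:**
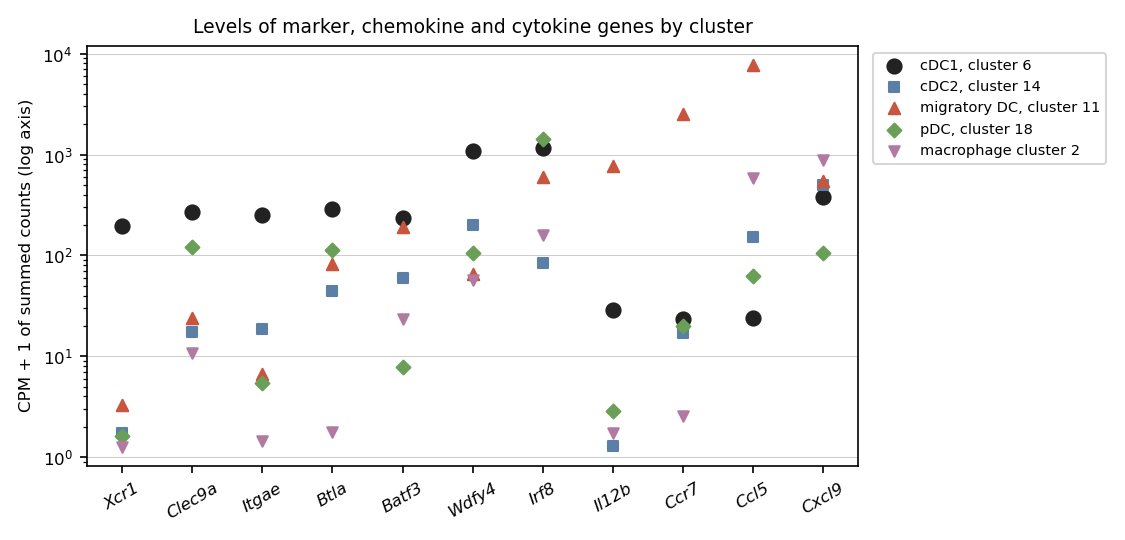
Level of 11 genes (x axis) as CPM + 1 of summed counts (y axis, log scale) in cDC1 and in 4 other clusters, 1 symbol a cluster. Xcr1, Clec9a, Itgae, Btla, Batf3 and Wdfy4 were highest in cDC1, while Il12b, Ccr7 and Ccl5 were highest in the migratory dendritic cells.

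Genes of antigen handling differed in level among the clusters, again given without a test. The immunoproteasome subunit genes Psmb8 (1040 CPM) and Psmb9 (715 CPM) and the peptide transporter gene Tap1 (234 CPM) were highest in cDC1, and migratory dendritic cells came next with 883, 559 and 192 CPM. The class I heavy chain genes were lower than in migratory cells. H2-K1 stood at 981 CPM, H2-D1 at 1092 CPM and the light chain gene B2m at 1385 CPM, where migratory cells held 2592, 2243 and 4285 CPM. MHC class II transcripts were close to those of cDC2: H2-Aa stood at 8481 CPM in cDC1 and at 8897 CPM in cDC2, and the invariant chain gene Cd74 at 18918 and 19507 CPM. H2-DMb1, a chain of the peptide editor H2-DM, was highest in cDC1 (524 CPM, cDC2 472 CPM). Among transcription factors, Id2 (781 CPM) and Batf3 (236 CPM) were highest in cDC1, while Zeb2 (30.6 CPM) and Irf4 (2.15 CPM), associated with cDC2 and pDC, lay far below their cDC2 levels of 359 and 55.8 CPM. Flt3, the receptor for the growth factor of dendritic cells, stood at 208 CPM and was higher only in migratory cells (255 CPM).

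Transcripts of several cytokine and maturation genes were found in few cells. Il12b, the p40 subunit of IL-12, was found in 31 cells (2.36%), which held 269 UMIs, against 0.107% of cluster 3 T cells. Il12a, the p35 subunit, gave 0 UMIs in 1312 cells, which allows up to 0.229% of cells with a UMI. Cxcl9 was found in 400 cells (30.5%), against 3.10% of the shallower cluster 3, and the 66 cells with the most Cxcl9 held 62.6% of its UMIs. Of the 31 Il12b cells, 19 also held Cxcl9. Ccr7 was found in 2.90% of cells, against 0.311% of macrophage cluster 2 (median 3881 UMIs a cell), and the actin bundler gene Fscn1 in 5 cells. UMIs of both were found together in 0 of 1312 cells, which allows up to 0.229% of cells with both UMIs and sets no limit on cells that express both genes. In migratory dendritic cells (cluster 11) Il12b stood at 775 CPM, Ccr7 at 2506 CPM, Ccl5 at 7790 CPM and the costimulatory genes Cd40 and Cd80 at 419 and 308 CPM. The cDC1 values were 27.5, 22.5, 22.9, 57.8 and 33.6 CPM. Ido1, a tryptophan-degrading enzyme, gave 13 UMIs in 13 cells. A UMI of the proliferation genes Mki67 or Top2a was found in 29.2% of cDC1, and these cells were deeper (median 10193 UMIs) than the others (5697 UMIs). After thinning each cell to 2000 UMIs, which left out 92 shallower cells, the share with either UMI was 18.4%. For Mki67 alone, unthinned, the share was 24.8%, against 13.2% in cDC2 (median 5301 UMIs a cell) and 5.07% in macrophage cluster 2.

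cDC1 made up 0.297% to 3.77% of the cells of aPD1 tumors (median 1.19%, n = 24) and 0.360% to 3.20% of isotype tumors (median 1.32%, n = 24). The 3.77% was 2 cDC1 among 53 cells of a CC007 tumor, and the next highest aPD1 tumor stood at 2.26%. Tumors overlapped between classes and between treatments. In isotype tumors the share was 1.21% ± 0.686 (SD, n = 10) in responder strains and 1.59% ± 0.887 (SD, n = 9) in non-responder strains. The difference of -0.375 percentage points was within the spread (exact permutation test of the rank sum, two-sided, p = 0.40, adjusted over 7 share comparisons p = 0.810). In aPD1 tumors the means were 1.34% ± 0.634 (SD, n = 10) and 1.31% ± 0.710 (SD, n = 9), with an exact permutation p = 0.905 and an adjusted p = 1. The aPD1 minus isotype difference was 0.123 percentage points in responder strains (permutation p = 0.579) and -0.280 in non-responder strains (exact permutation p = 0.546), each with an adjusted p of 0.810. These tests took the tumors as unpaired, and with pairs of 1 pool and strain as a block neither effect passed. The share was higher in the aPD1 tumor in 5 of 10 responder pairs of 1 pool and strain and in 3 of 9 non-responder pairs. The difference between these effects was 0.403 percentage points (exact permutation test over pairs, p = 0.211, adjusted p = 0.739). Over all strains the groups differed by -0.0154 percentage points (permutation p = 1). Without tumors of under 500 cells this difference was -0.164 percentage points. The CD45 sort set the base of these shares. As shares of dendritic cells, the class differences were 1.60 percentage points in isotype tumors and 3.35 in aPD1 tumors.

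Shares were also compared across host strains. Strain means ran from 0.881% ± 0.441 in CC079 (SD, n = 6) and 0.890% ± 0.567 in CC001 (n = 8) to 1.83% ± 0.476 in CC002 (n = 6), 1.87% ± 1.32 in CC007 (n = 4) and 2.13% ± 0.638 in CC080 (n = 6). The CC007 mean was raised by an aPD1 tumor of pool 6 that held 2 cDC1 among 53 cells (3.77%). The other CC007 tumors ran from 0.755% to 1.65%. Over the 8 strains the difference did not pass after adjustment (permutation test of the Kruskal-Wallis statistic, p = 0.0160, adjusted p = 0.112). Nor did it pass without the tumors of under 500 cells. With strains exchanged only within pools the exact permutation p was 0.117 (adjusted p = 0.739). It passed without pool 6 (adjusted p = 0.0120) or pool 12 (adjusted p = 0.0214), and when the share was taken of dendritic cells rather than of all cells (adjusted p = 0.0178). On that base it did not pass with strains exchanged within pools (adjusted p = 0.364). On that base cDC1 made up 10.9% of dendritic cells in CC079, 11.0% in B6, 12.5% in CC036 and 12.6% in CC001, and 15.7% in CC007, 19.2% in CC002, 19.3% in CC080 and 19.7% in CC075. The strains with the larger shares thus belonged to both classes.

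**Figure D2:**
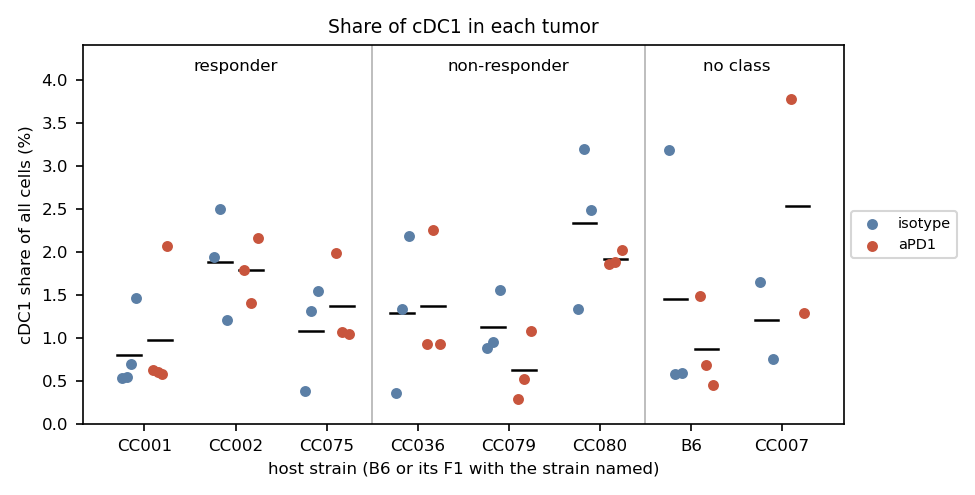
Share of cDC1 among all cells (y axis, %) in each of 48 tumors by host strain (x axis), 1 point a tumor, with a bar at the mean of each strain and treatment. Tumors of 1 strain spread widely, and CC080 and CC002 tumors lay higher than most CC001 and CC079 tumors.

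Between the response classes a small set of genes differed in cDC1, among them the marker gene Cadm1 and 7 genes of the MHC region. Of 4196 genes tested, 27 passed an adjusted p of 0.05 (0.643%) with edgeR's quasi-likelihood test and Benjamini-Hochberg adjustment, treatment being a covariate. Of these, 19 were higher in responder strains (0.453%) and 8 lower (0.191%). At an unadjusted p under 0.05 there were 367, and DESeq2 called 37, of which 26 were shared. The test takes tumors as replicates although each class holds only 3 strains, so an effect of class cannot be told apart from effects of the strains that make it up. With strain as a correlated block (limma-voom) 11 genes passed, and on sums over each of the 6 strains 1 gene passed. In 23 of the 27 genes the 3 responder strain means lay on one side of all 3 non-responder means, which held for 387 of the genes tested (9.22%). Since the 27 genes were chosen by the same contrast, nothing is read from that count. The exceptions were Gm973, Ifi202b, Ifi211 and Mgst3. The count fell to 17 without pool 2, 15 without pool 9, 14 without pool 10, 15 without pool 11 and 17 without CC075.

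Of 13 class II pathway genes tested, 3 rose in responder strains, where 0.453% of all genes did, and the median difference was 0.18 on the log2 scale, against -0.0016 over all genes tested. H2-Eb1 encodes the beta chain of I-E and lies at chr17:34305867-34316674 (GRCm38, plus strand, protein coding). It ran from 6645 to 10233 CPM with a median of 7822 CPM in responder strain tumors, and from 3091 to 7171 CPM with a median of 5839 CPM in non-responder strain tumors. Of the 16 responder tumors, 13 lay above the highest non-responder tumor. The log2 difference was 0.59 ± 0.10 (SE, adjusted p = 0.000760). The 6 CC080 tumors were the lowest, at 3091 to 4085 CPM, and without CC080 H2-Eb1 passed at a smaller log2 difference of 0.34 (adjusted p = 0.00879). H2-DMb1 (chr17:34153072-34160230) ran from 491 to 800 CPM (median 620) against 282 to 628 CPM (median 462), a log2 difference of 0.52 ± 0.091 (adjusted p = 0.000760), and 7 responder tumors lay above all non-responder tumors. H2-DMa, the partner chain of H2-DM, ran from 533 to 963 CPM (median 780) against 514 to 874 CPM (median 596). Its log2 difference of 0.35 ± 0.086 (adjusted p = 0.0390) kept its call under 5 of 29 alternatives. It was lost without any 1 of pools 2, 3, 5 and 8 to 12 or any 1 of the 6 classed strains, with pool as a block (adjusted p = 0.0738) and with strain as a correlated block (limma-voom, adjusted p = 0.171). H2-Aa (log2 difference 0.11 ± 0.065, adjusted p = 0.676) and H2-Ab1 (0.18 ± 0.054, adjusted p = 0.151), the chains of I-A, did not pass, though DESeq2 called H2-Ab1 (adjusted p = 0.0499).

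Class II promoters share a set of upstream boxes, one of them a CCAAT box in reverse, and the promoters of 2 genes that rose and of one that did not are shown to let them be compared. The sequences are from RefSeq on GRCm38.p6, each 300 bases long on the gene's strand, from 250 before to 50 after the start. Capitals mark CCAAT and its reverse, ATTGG, both searched on the printed strand. H2-Eb1 lies at chr17:34305617-34305916 (plus strand), H2-DMb1 at chr17:34152941-34153240 (plus strand) and H2-Aa at chr17:34287774-34288073 (minus strand).
H2-Eb1: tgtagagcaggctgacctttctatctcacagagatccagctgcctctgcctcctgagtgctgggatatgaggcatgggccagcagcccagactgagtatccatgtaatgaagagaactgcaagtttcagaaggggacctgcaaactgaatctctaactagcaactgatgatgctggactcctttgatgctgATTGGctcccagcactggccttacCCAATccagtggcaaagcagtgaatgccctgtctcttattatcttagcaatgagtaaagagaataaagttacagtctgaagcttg
H2-DMb1: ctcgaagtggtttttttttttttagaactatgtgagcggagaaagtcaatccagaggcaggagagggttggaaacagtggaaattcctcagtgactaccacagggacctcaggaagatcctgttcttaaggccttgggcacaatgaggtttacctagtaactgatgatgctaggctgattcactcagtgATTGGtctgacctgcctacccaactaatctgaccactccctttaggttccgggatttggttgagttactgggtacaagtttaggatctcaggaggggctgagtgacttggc
H2-Aa: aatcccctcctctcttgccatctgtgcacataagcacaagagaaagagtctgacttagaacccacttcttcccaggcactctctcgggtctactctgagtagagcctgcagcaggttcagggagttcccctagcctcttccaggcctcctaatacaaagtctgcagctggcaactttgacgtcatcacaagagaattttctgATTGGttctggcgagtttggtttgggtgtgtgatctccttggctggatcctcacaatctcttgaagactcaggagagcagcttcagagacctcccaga
ATTGG lay -59 bases from the start in H2-Eb1, which also held CCAAT at -35, -61 bases from it in H2-DMb1, and -48 bases from it in H2-Aa. Of 14 genes of the list 11 matched a promoter, with 13 promoter entries in all, and 9 of these entries held the motif in either orientation, against 37.4% of all 32851 promoter entries. H2-DMa had a pair of entries, one without the motif and one with ATTGG at -198.

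H2-D1 and H2-Q7 passed among class I genes. H2-D1 (chr17:35262730-35267499) ran from 993 to 1843 CPM (median 1299) in responder strain tumors and from 707 to 1331 CPM (median 872) in the others, a log2 difference of 0.53 ± 0.087 (adjusted p = 0.000451). H2-Q7, a non-classical class I gene at chr17:35439155-35443773, ran from 87.1 to 210 CPM (median 135) against 24.5 to 132 CPM (median 62.5), a log2 difference of 0.98 ± 0.17 (adjusted p = 0.000582). H2-K1 did not pass (median 932 against 1046 CPM, log2 difference -0.22 ± 0.20, adjusted p = 0.831), though without CC036, the strain with the lowest H2-K1, it did (log2 difference -0.57, adjusted p = 0.0290). Of H2-Q7, 22.1% of 60-base windows of the transcript were also found in another gene, of H2-DMb1 19.5%, of H2-D1 8.14% and of H2-Eb1 0%. Reads of H2-Q7, H2-DMb1 and H2-D1 could thus be shared with near copies, which for H2-DMb1 is H2-DMb2. How this affected their class differences was not tested. Of 21 cross-presentation genes tested, H2-D1 alone passed, where 0.453% of all genes were higher, and 16 differences were positive (median 0.13, all genes -0.0016). Tap1 was 0.41 ± 0.11 (adjusted p = 0.0593). Of the 27 genes, 7 lay between 33 and 38 Mb of chromosome 17, which holds the MHC, or 25.9%, against 1.56% of the genes tested. These were H2-D1, H2-DMa, H2-DMb1, H2-Eb1, H2-Q7, Ppt2 and Rps18. With strain as a correlated block (limma-voom) H2-DMa and Ppt2 were lost, and 5 of the 11 genes that passed lay there. Of Ppt2 31.5% of windows and of Rps18 17.6% were also found in another gene. Rps18 shares windows with Gm10260, whose count differed the other way, so the place of Rps18 among the 7 is uncertain. Host haplotype at the MHC differs by strain, and its part in the counts was not tested.

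Cadm1, an adhesion molecule that marks cDC1 and binds CRTAM on activated T cells, gave the largest difference among the marker genes. It ran from 75.7 to 305 CPM (median 180) in responder strain tumors and from 24.2 to 123 CPM (median 74.7) in non-responder strain tumors. All 16 responder tumors lay above the non-responder median and 13 above the highest non-responder tumor. The log2 difference was 1.27 ± 0.18 (adjusted p = 4.45e-05), and it was called under 28 of 29 alternatives, the exception being the sums over 6 strains (adjusted p = 0.0837). In B6 and CC007, which have no class, the means were 209 CPM ± 100 (SD, n = 4) and 254 CPM ± 169 (n = 3), and the tumors ran from 101 to 311 CPM and from 141 to 448 CPM. B6 overlapped both classes and CC007 lay above all non-responder tumors. Gpr141b, annotated as a lincRNA, was 0.84 ± 0.21 higher (adjusted p = 0.0412, called under 13 of 29 alternatives). It was lost with strain as a correlated block (limma-voom, adjusted p = 0.193) and without any 1 of pools 2, 5, 8, 9, 10 and 11, CC002, CC036, CC075 and CC079. The 4 markers that name the cluster did not differ by class. Xcr1 was 0.26 ± 0.18 on the log2 scale (adjusted p = 0.761), Clec9a 0.05 ± 0.13, Itgae 0.10 ± 0.13 and Btla 0.10 ± 0.12. Irf8 was 0.19 ± 0.079 (adjusted p = 0.394) and Batf3 0.14 ± 0.091.

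**Figure D3:**
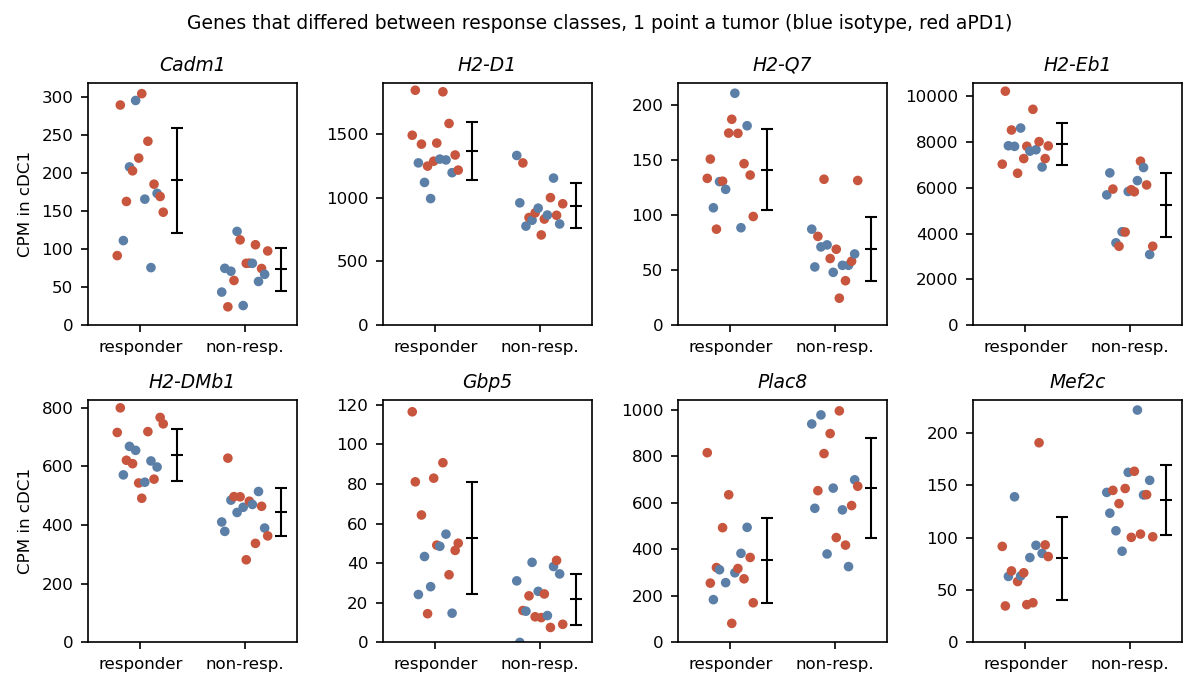
CPM in cDC1 (y axis) for 8 genes past the threshold between response classes, 1 point a tumor (16 a class), with the mean and SD at the right of each class. Cadm1, H2-D1, H2-Q7, H2-Eb1, H2-DMb1 and Gbp5 lay higher in responder strain tumors, Plac8 and Mef2c lower, and the classes overlapped in each.

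Among other genes higher in responder strains, Mctp1, a calcium-binding membrane protein, ran from 169 to 492 CPM (median 322) against 106 to 281 CPM (median 196), a log2 difference of 0.64 ± 0.12 (adjusted p = 0.00315) that did not pass without CC075. Gbp5, an interferon-induced GTPase, ran from 14.5 to 117 CPM (median 48.8) against 0 to 41.4 CPM (median 19.8), a log2 difference of 1.14 ± 0.28 (adjusted p = 0.0396). It was called under 9 of 29 alternatives, was lost with strain as a correlated block (limma-voom, adjusted p = 0.246) and without any 1 of pools 1, 2, 3, 5 and 8 to 11, CC002, CC036, CC075, CC079 and CC080, and with pool as a block its adjusted p was 0.0718. It was the one gene to pass of 14 interferon gamma response genes tested, where 0.453% of all genes were higher. Mgst3, a glutathione transferase, rested on 1 strain. Its median was 37.5 CPM against 26.8 CPM, while CC075 tumors stood at 235 CPM ± 49.1 (SD, n = 5), and without CC075 the log2 difference fell from 1.92 to 0.19 (adjusted p = 0.939). The call was also lost with strain as a correlated block (limma-voom, adjusted p = 0.624), without pool 9, 10 or 11 and without CC036 or CC080.

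Plac8, a small protein of leukocytes, ran from 81.9 to 816 CPM (median 315) in responder strain tumors and from 326 to 995 CPM (median 658) in the others, and 10 of 16 responder tumors lay below the lowest non-responder tumor. It was lower by 0.94 ± 0.20 on the log2 scale (log2 difference -0.94, adjusted p = 0.0148). The call was lost without pool 3 or 11 and without CC002, CC075, CC079 or CC080. Mef2c, a transcription factor of myeloid and lymphoid development, ran from 34.8 to 190 CPM (median 74.5) against 87.0 to 222 CPM (median 141). Its log2 difference was -0.71 ± 0.16 (adjusted p = 0.0263), with an adjusted p of 0.0738 with pool as a block. It was also lost with strain as a correlated block (limma-voom, adjusted p = 0.0886), without pool 2, 3, 5, 9, 10 or 12 and without CC002, CC036 or CC079. Ybx3, a cold shock domain protein that binds RNA, was -0.77 ± 0.15 (adjusted p = 0.00264), from 30.3 to 122 CPM against 56.6 to 207 CPM. Its call was lost with strain as a correlated block (adjusted p = 0.116) and with tumors of at least 5 cells (adjusted p = 0.0867). Ifi211 (-0.73 ± 0.14) and Ifi202b (-1.89 ± 0.41), members of an interferon-inducible family that senses DNA, lie together on chromosome 1. Of Ifi211, 68.9% of 60-base windows were found in another gene, so its counts are uncertain. Gadd45gip1, a mitochondrial ribosome protein, was -0.69 ± 0.15 and Rplp2, a ribosomal stalk protein, -0.34 ± 0.076. All 4 calls were lost without CC075 or CC080 and without pool 11. Those of Ifi211 and Gadd45gip1 were also lost without CC002, those of Ifi202b and Gadd45gip1 without CC036, and that of Rplp2 without CC001, and without CC080 the Rplp2 difference was -0.22. Every one of the 4 was lost without pool 3, Gadd45gip1 also without pool 9, and Ifi202b and Rplp2 without pool 10 or 12. DESeq2 did not call Ifi202b. With strain as a correlated block Ifi202b (adjusted p = 0.707) and Rplp2 (adjusted p = 0.0509) were lost.

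The largest difference was that of Gm10260, and it is uncertain. It was counted at 0 to 28.2 CPM in responder strain tumors and at 653 to 1246 CPM in non-responder strain tumors. Of its 60-base windows, 51.8% were also found in the ribosomal protein gene Rps18, which differed the other way (1528 to 2489 against 1142 to 1780 CPM, log2 difference 0.63 ± 0.081, adjusted p = 3.46e-06). Gm10260 was the single gene called on sums over 6 strains.

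Costimulatory, cytokine and maturation genes gave no call between classes, where 0.643% of all genes were called, a share at which nothing is read from a count of 0 in lists this short. Of 12 costimulation genes tested 0 passed, though 11 differences were positive (median 0.21), and Cd40 was 0.31 ± 0.24 and Cd86 0.11 ± 0.14. Of 11 cytokine and chemokine genes 0 passed, and Cxcl9 ran from 129 to 1456 CPM (median 308) against 60.5 to 771 CPM (median 330), with a log2 difference of 0.63 ± 0.35 (adjusted p = 0.645). Il18 was 1.23 ± 0.32 (adjusted p = 0.0593). Cd274, which encodes PD-L1, the ligand of PD-1, ran from 7.38 to 356 CPM (median 153) against 8.05 to 205 CPM (median 63.1), and was 0.92 ± 0.32 (adjusted p = 0.261, with no filter on low counts 0.0215). Of 29 cell cycle genes and 12 type I interferon genes, 0 passed (medians -0.14 and -0.22). Summed macrophage markers overlapped between the classes, from 255 to 1727 CPM (median 613) against 209 to 2143 CPM (median 729). T and NK markers ran from 0 to 210 CPM against 0 to 64.7 CPM. Without cells that held macrophage or T cell UMIs, 20 genes were called, all of them among the 27.

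The same comparison in cDC2 of the same 32 tumors was set beside these results, a comparison chosen after the data were seen. In cDC2 48 of 7578 genes were called (0.633%). Of the 27 genes, 24 were tested there and 6 were called. In cDC2 of these shared tumors the log2 difference of H2-Q7 was 1.03 ± 0.10, that of H2-Eb1 0.34 ± 0.13, that of H2-D1 0.29 ± 0.079 and that of H2-DMb1 0.12 ± 0.091, of which H2-Q7 alone passed. The difference between the class effects in cDC1 and cDC2 was tested with tumor as a block, and 3 of 5540 genes passed (0.0542%), 1 of them among the 24. The count was 5 to 8 without any 1 of pools 1, 2, 3, 4, 5, 9 and 12. Strain was not taken into account in this test and no strain was left out. An effect of class cannot be told apart from effects of the strains here either. Plac8 was lower in responder strains in cDC1 and stood at 0.41 ± 0.19 in cDC2, a difference of -1.38 ± 0.24 (adjusted p = 0.00144). Mndal, another interferon-inducible gene of the Ifi family, had a log2 difference of -0.49 in cDC1 and 0.39 ± 0.12 in cDC2, a difference of -0.95 ± 0.15 (adjusted p = 0.000336). H2-Eb1, H2-D1 and Cadm1 were not among the genes past the threshold for this difference.

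At 48 h aPD1 changed no gene of cDC1 past the threshold. Over all strains 0 of 3328 genes passed with edgeR (0%), with 117 at an unadjusted p under 0.05. In responder strains, in non-responder strains and for the difference between these effects, 0 of 4196 genes passed each time (0%), with 226, 109 and 163 at an unadjusted p under 0.05. DESeq2 also called 0 in each of the 4 comparisons. No hashtag was used for both an isotype and an aPD1 tumor, and the hashtag and the antibody cannot be told apart here.

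The genes with the smallest p in responder strains were Cd14 and Reps1. Cd14, the lipopolysaccharide coreceptor and one of the macrophage markers, ran from 0 to 16.8 CPM (median 3.92) in 6 isotype tumors and from 0 to 210 CPM (median 28) in 10 aPD1 tumors, a log2 difference of 3.51 ± 0.73 (adjusted p = 0.0826). Of 7 macrophage genes tested in responder strains 4 were positive (median log2 difference 0.084, all genes 0.0056). Cd14 did not pass without cells that held macrophage or T cell UMIs. The part of macrophage RNA in its value was not tested beyond that. Reps1, an endocytic adaptor, ran from 12.1 to 26 CPM (median 14.6) against 23.2 to 59.0 CPM (median 38.4), 1.27 ± 0.27 (adjusted p = 0.0826). Cd14 alone passed without pool 9 (adjusted p = 0.0313), without CC080 (0.0246) and without the tumors that share an animal identifier (0.0353). In non-responder strains the smallest p was that of Map3k14, the NF-kappaB inducing kinase (log2 difference 1.05 ± 0.28, adjusted p = 1.00), with medians of 24.5 CPM in isotype and 50.1 CPM in aPD1 tumors. Over all strains the genes with the smallest p were Rock1, Asah1, Mpnd, Litaf and Gbp2, in that order. Gbp2, an interferon-induced GTPase, was at 0.86 ± 0.27 (adjusted p = 1.00), with medians of 27.9 and 65.5 CPM.

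The T cell attracting chemokine gene Cxcl9 ran from 129 to 1293 CPM (median 214) in responder isotype tumors and from 259 to 1456 CPM (median 435) in responder aPD1 tumors, a log2 difference of 0.86 ± 0.42 (adjusted p = 0.917). In non-responder strains it ran from 154 to 771 CPM (median 302) and from 60.5 to 613 CPM (median 330), -0.14 ± 0.41. The groups overlapped, and the difference between the effects was 1.00 ± 0.58 (adjusted p = 1.00). Cxcl10 was counted in few cells (72 of 1312). Its medians were 4.22 and 59.9 CPM in responder strains and 29.1 and 7.42 CPM in non-responder strains (adjusted p = 0.893 in responder strains and 1.00 for the difference between the effects). With no filter on low counts both passed in responder strains, Cxcl9 at 0.81 (adjusted p = 0.000546) and Cxcl10 at 2.62 (adjusted p = 2.31e-11). Both also passed for the difference between the effects, at 1.00 (adjusted p = 0.00943) and 3.11 (adjusted p = 3.51e-09). That setting raised the number of calls in every gene comparison, between classes from 27 to 80. Mki67, a proliferation gene, stood at medians of 81.8 and 135 CPM in responder strains (0.77 ± 0.28, adjusted p = 0.803) and 154 and 114 CPM in non-responder strains (-0.19 ± 0.25). Cd40 was at 0.52 ± 0.30 in responder and -0.60 ± 0.30 in non-responder strains, and the difference of 1.11 ± 0.43 had an adjusted p of 1.00. Of 14 interferon gamma response genes, 10 were positive in responder strains (median log2 difference 0.61, all genes 0.0056) and 8 in non-responder strains (median 0.018, all genes 0.0042), and none passed by edgeR. Of 29 cell cycle genes 19 were positive in each class, with medians of 0.33 and 0.063. The class II genes had medians of 0.057 and -0.061.

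**Figure D4:**
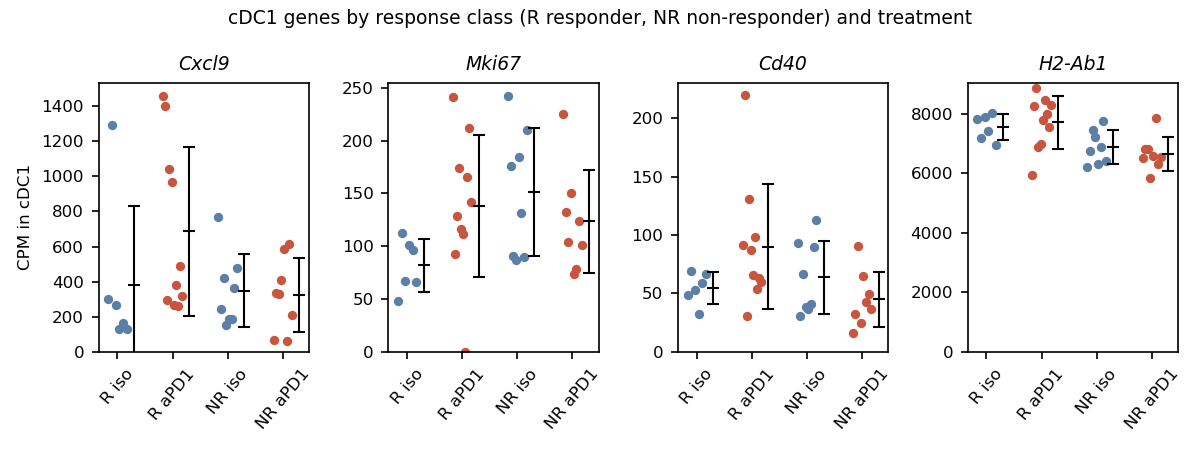
CPM in cDC1 (y axis) of Cxcl9, Mki67, Cd40 and H2-Ab1 by response class and treatment (x axis), 1 point a tumor (6, 10, 8 and 8 tumors), with the mean and SD at the right of each group. The isotype and aPD1 tumors overlapped for all 4 genes in both classes.

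Gene levels were also compared across host strains. Over 8 strains 182 of 5035 genes passed (3.61%, edgeR's quasi-likelihood F test, 841 at an unadjusted p under 0.05), and with pool as a block 60 passed, 53 of them shared. Without pool 3 the count was 119 and without pool 6 it was 288. Several of the leading genes were near copies of other genes. Ftl1-ps1 is a ferritin light chain pseudogene by its symbol, is annotated as protein coding and shares 54.6% of its windows with Ftl1. It stood at 692 CPM in CC001 and 566 CPM in CC080, and at 10.3 to 35.3 CPM elsewhere. Tpm3-rs7 and Gm10260, also annotated as protein coding, were near copies as well, and such counts are uncertain. Olfr1459, an olfactory receptor gene, was at 150 CPM in CC036 and 47.3 CPM in CC007 and at most 1.11 CPM in the other strains. Mgst3 was at 235 CPM in CC075 and 196 CPM in CC007, against 23.2 to 34.8 CPM.

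Of the called genes with a known position, 11 (6.15%) lay in the MHC stretch of chromosome 17, against 1.5% of those tested. H2-K1, which encodes the class I heavy chain K, was at 448 CPM ± 76.9 in CC036 (SD, n = 5) and at 1646 CPM ± 311 in CC080 (n = 6), and the other strains stood at 770 to 1001 CPM (adjusted p = 1.84e-09). H2-Eb1 was at 3625 CPM ± 389 in CC080, while the other strains stood at 6015 to 8777 CPM (adjusted p = 2.06e-09). The highest mean of H2-K1 and the lowest of H2-Eb1 thus fell in CC080. H2-D1 was lowest in CC080 (845 CPM ± 64.1) and highest in CC075 (1488 CPM ± 224). H2-DMb2 was highest in CC036 (239 CPM ± 81.4) and CC079 (169 CPM ± 37.8), against 76.9 to 139 CPM, a call that was lost with pool as a block (adjusted p = 0.0683). H2-Q2 was counted in CC007 (190 CPM) and CC079 (41.2 CPM), and at 0 in B6, CC001 and CC075.

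Single members of several gene lists also differed by strain, and many of the calls below were lost with pool as a block. Il18, a cytokine that drives interferon gamma in T and NK cells, stood at 149 CPM ± 61.5 in CC002 (SD, n = 5) and at 16.3 to 58.6 CPM in the other strains (adjusted p = 1.86e-07). Ly6a, an interferon-induced surface protein, was at 980 CPM ± 310 in CC080 and 226 CPM ± 87.6 in CC036 (adjusted p = 0.000149, with pool as a block 0.182). Cd274 was highest in CC075 (203 CPM ± 86.6) and lowest in CC079 (47.2 CPM ± 40.3, adjusted p = 0.0442). That call was lost with DESeq2, with pool as a block (adjusted p = 0.110) and without any 1 of pools 1, 2, 3, 4, 7, 9, 10 and 11. Among the cluster's own markers Btla (348 to 498 CPM in CC075, 171 to 349 CPM in B6, adjusted p = 0.0438) and Gcsam (CC001 244 CPM ± 62.1, CC036 113 CPM ± 28.7, adjusted p = 0.0122) passed, with Cadm1 and Gpr141b. With pool as a block Btla (adjusted p = 0.560) and Gcsam (adjusted p = 0.233) did not pass. Btla was also lost without any 1 of pools 1, 3, 4, 6 and 9 to 12, Gcsam without pool 2 or 4 and Gpr141b without pool 5. Cd36, a scavenger receptor, was highest in CC001 (125 CPM ± 54.9) and lowest in CC075 (18.6 CPM ± 4.81, adjusted p = 0.000305, with pool as a block 0.416). Apoe, a macrophage marker, ran from 12.2 CPM in CC075 to 283 CPM ± 360 in CC079 (adjusted p = 0.0206, with pool as a block 0.849, and lost without pool 2, 9, 10 or 11). Without cells that held macrophage or T cell UMIs, 163 genes were called between strains, 149 of them among the 182, and Apoe (adjusted p = 0.371) and H2-DMb1 (adjusted p = 0.156) were not. None of 17 development genes, 31 cell cycle genes, 18 stress genes and 12 maturation genes tested passed by edgeR, with 4, 10, 8 and 5 at an unadjusted p under 0.05. At 3.61% over all genes few calls would fall in lists of these sizes, so nothing is read from these counts.

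**Figure D5:**
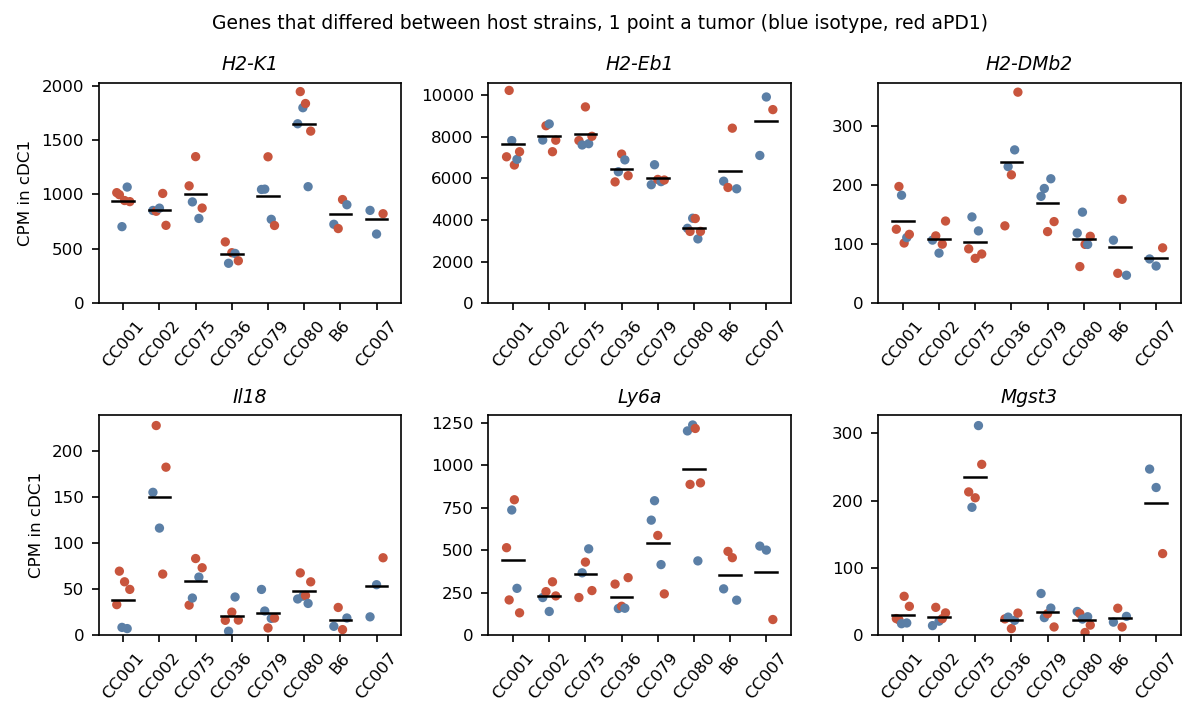
CPM in cDC1 (y axis) of 6 genes past the threshold between host strains, by strain (x axis), 1 point a tumor, with a bar at the strain mean. CC080 stood apart with high H2-K1 and low H2-Eb1, CC036 with low H2-K1 and high H2-DMb2, CC002 with high Il18, and CC075 and CC007 with high Mgst3.

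Interferon gamma from T and NK cells is known to act on dendritic cells, so gene levels in cDC1 were set against the Ifng level of the rest of each tumor. The slope is the log2 change in cDC1 for each doubling of Ifng CPM + 1 in the cells outside cluster 6, with strain and treatment as covariates. Over 39 tumors 0 of 3328 genes passed with edgeR (0%), with 249 at an unadjusted p under 0.05 and 3 by DESeq2, and 2 passed with pool as a block. The smallest p was that of Dut, a nucleotide-metabolism enzyme of dividing cells (slope -0.35 ± 0.075, adjusted p = 0.111), which passed with DESeq2 (adjusted p = 0.00870) and with pool as a block (adjusted p = 0.0212). Ppp1r15a, a stress response phosphatase subunit, had a slope of 0.36 ± 0.084 (adjusted p = 0.201, with DESeq2 0.0432). Without pool 4, pool 11, CC002 or CC036, 1 or 2 genes passed. Of 15 cDC1 markers 14 had a positive slope (median 0.055), among them Xcr1 (0.14 ± 0.067) and Clec9a (0.13 ± 0.044), and of 20 cell cycle genes 3 did (median -0.10, all genes -0.0027). Of 11 interferon gamma response genes tested 10 had a positive slope (median 0.11, all genes -0.0027), and none passed by edgeR. Cxcl9 itself had a slope of 0.11 ± 0.13 (adjusted p = 0.899). Without the strain term 52 genes passed.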

How the data were processed

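Single-cell RNA-seq (5′ chemistry) was made from 48 MC38 tumors in 12 pools. The authors deposited raw UMI counts per gene and cell, made with Cell Ranger on GRCm38 (mm10), with a library, strain, treatment, hashtag and cluster number per cell (Seurat 5.0.1, integrated over processing dates). Cells high in mitochondrial or ribosomal UMIs had been removed, and no doublet caller was run here. Reads of both host haplotypes were aligned to 1 reference, and how this affected counts was not tested. Counts of cluster 6 were summed per tumor, and tumors with under 10 cells were left out, 9 of 48.

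Genes were filtered with filterByExpr, scaled by TMM and tested with edgeR 4.0.16 (quasi-likelihood F test) in R 4.3.3, with DESeq2 1.42.0 and limma 3.58.1 as alternatives. The threshold was an adjusted p of 0.05. Shares were tested by permutation (exact, or 100000 resamples). The test was also run on simulated counts, and the outcome is not given here. Cluster 6, the gene lists and the named genes were chosen with earlier results of these data known. Named genes were the 8 of smallest p in each direction with at least 20 CPM in a group (12 for host strain), the 5 of smallest p where fewer passed, list members past the threshold, and a fixed set of cDC1 genes. The lists were cDC1 markers, development, cross-presentation, class II, interferon gamma and type I response, cytokines, costimulation, maturation, dead cell sensing, cell cycle, stress, and markers of 9 other cell types. The 9 genes tested for dead cell sensing between classes had 0 past the threshold and a median log2 difference of 0.12, the 18 for stress 0 and -0.021, the 16 for development 0 and 0.053, and the 11 for maturation 0 and 0.14.

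The labels put an isotype and an aPD1 tumor of each strain in 1 pool, which shares a library, so pool was a block in an alternative. The deviations of the 14 such pairs correlated at -0.0093 to 0.30 (median 0.046, 6 over 0.1), and for the share of cDC1 the 24 pairs correlated at 0.32. For genes, 31 pairs of tumors of 1 pool and different strains had a median of 0.057. Nothing tested says whether tumors with the same treatment and strain came from separate cohorts, so p-values measure the spread between these tumors. The animal identifier was the same for 2 tumors (CC080 isotype of pool 3 and CC080 aPD1 of pool 4), and leaving both out was an alternative. Depth is given as UMIs per tumor, and shares of cells and UMIs cover counting error only. Some genes past a threshold are not reported here by name.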

Additional observations from a re-analysis of the deposited data

Results flagged for a closer look

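The Cxcl9 level of 1 CC001 isotype tumor (pool 4) was 1293 CPM, where the other 5 responder isotype tumors ran from 129 to 300.1 CPM, so it stood apart from its group. The Il12b level of 1 CC075 isotype tumor (pool 10) was 154 CPM, against at most 3.69 CPM in the rest of the responder isotype tumors. The Il12b level of 1 CC080 aPD1 tumor (pool 11) was 54.9 CPM, against at most 2.94 CPM in the other non-responder aPD1 tumors. Chance alone sets apart about 1 in 20 groups. The 56 groups looked at were of 11 genes and of the cDC1 share, and 3 samples were flagged. Il12b was found in 31 cells of the cluster and Cxcl9 in 400 cells. An Il12b UMI was found in 1% of the 200 cDC1 of responder isotype tumors. In non-responder aPD1 tumors it was found in 0.866% of 231 cDC1. Each of the flagged Il12b levels thus rests on very few cells.

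The class effect differed between cDC1 and cDC2 for Mndal and Plac8, by the test of the difference itself. The log2 class difference in cDC1 minus that in cDC2 was -0.95 for Mndal and -1.38 for Plac8. This comparison was chosen after the data were seen. It took tumors as replicates and was not repeated with strain as a block or with a strain left out. Effects of single strains thus cannot be told apart from class.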

How the results depend on the processing

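The count of genes that differed between classes was 27. It was 80 with no filter on low counts, 17 with tumors of at least 5 cells, 11 with strain as a correlated block, 1 on sums over 6 strains, and 7 in each of pools 1 to 6 and pools 7 to 12 alone, which were chosen after the data were seen (6 of each 7 were among the 27). A term for pools 1 to 6 against pools 7 to 12 gave 31 and kept all 27. Leaving out 1 pool or strain gave 14 to 33, with 17 without pool 2, 15 without pool 9, 14 without pool 10, 15 without pool 11 and 17 without CC075. With pool as a replicate block 25 passed, 20 of them shared. Within pools 1 to 6 Cadm1 stood at 1.44 and within pools 7 to 12 at 1.11, and H2-Eb1 at 0.68 and 0.50, the last with an adjusted p of 0.268.

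With no filter on low counts, aPD1 counts were 6 over all strains, 9 in responder strains, 9 in non-responder strains and 13 for the difference, among them Gbp2 over all strains, Cd14, Cxcl9 and Cxcl10 in responder strains and Il12b in non-responder strains. Ccl5, Ccr7, Cd40, Cd80, Cd86, Cxcl9, Cxcl10, Il12b, Mki67 and Xcr1 then also passed between host strains. In responder strains the count was 1 without the tumors that share an animal identifier and 0 to 1 when 1 pool or strain was left out. For host strain DESeq2 gave 300, no filter 720, the pool block 60, and leaving out 1 pool 119 to 288. For the Ifng slope DESeq2 gave 3, no filter 33, the pool block 2, no strain term 52, and leaving out 1 pool or strain 0 to 2. For the cDC1 minus cDC2 difference no filter gave 48, cells without macrophage or T cell UMIs 9, and leaving out 1 pool 3 to 8. The causes were not tested.

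The share differences that missed the threshold changed sign under some alternatives. As a share of dendritic cells, the class difference was 1.60 percentage points in isotype tumors and 3.35, which did not pass, in aPD1 tumors. On that base the aPD1 difference over all strains was 0.613, and the spread of strain means was 8.80, past the threshold. The class difference in aPD1 tumors was -0.215 with pool as a block and -0.126 in pools 1 to 6. The block leaves out pools without both classes. One of these is pool 12, with responder aPD1 tumors of 2.07% and 2.16%, so the set of tumors differs from the main one. Leaving out 1 pool or strain gave -0.662 to 0.00137 for class in isotype tumors, -0.310 to 0.335 in aPD1 tumors, -0.0424 to 0.257 for aPD1 in responder strains, -0.138 to 0.0650 over all strains, and 1.05 to 1.83 for host strain, which passed without pool 6 (1.55) or pool 12 (1.53). The effect in non-responder strains kept its sign throughout.

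Of 5551 values of named genes under alternatives, 209 lost and 41 gained a call. Of those called in either fit 0 changed sign, which refits on nearly the same tumors could hardly do. Of the uncalled values 284 changed sign. The values for host strain are adjusted p-values and have no sign. The pool block lost Mef2c, Gbp5 and H2-DMa between classes and Ifi44, Cd36, Apoe, Ly6a, Btla, Gcsam, H2-DMb2 and Cd274 between strains, gained Dut for the Ifng slope and changed no other call of a named gene. H2-DMb1, which differed between strains, was not called there without any 1 of pools 1, 3, 4, 5 and 9 to 12. Cxcl9, uncalled between strains, passed without pool 6 or 12, Il12b without pool 4 or 7 and Cd86 without pool 6. Scaling by library size alone shifted the median class difference of all genes by -0.0040. Il12b, Cxcl10 and Ccr7 were at 0 in several tumors, where low depth and few expressing cells cannot be told apart, and tumors of 10 to 20 cells give wide intervals.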
